A study of Mus musculus with 6 samples.

Results

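The liver genes of glycogen synthesis and breakdown were followed here in refed male offspring. The 9 genes were chosen by name, as the rows whose Ensembl identifiers map to Ugp2, Gyg, Gys2, Gbe1, Pygl, Stbd1, Ppp1r3b, Ppp1r3c and Ppp1r3g. They are 9 of the 16727 genes in the tables, and each of them was measured in every liver. All 9 also reached the mean of at least 1 FPKM needed for the test, although Ppp1r3g did so only through the iAsF1-M livers.

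The study exposed wild-type C57BL/6 fathers to inorganic arsenic (iAs) and asked how the liver of their unexposed offspring differs. The iAsF1-M group is 3 male F1 mice whose fathers drank water with 250 ppb iAs for 6 weeks before mating with unexposed females. The conF1-M group is 3 male F1 mice whose fathers drank normal water. Mice of both groups were WT, ate normal chow, drank normal water, and had been refed for 7 h when the livers were taken in the late afternoon. The age of these mice is not given in the sources used here, nor is the father or litter of each liver, so livers were treated as independent and a father shared within a group cannot be told apart from the exposure. Liver RNA was sequenced, and each gene has 1 value per liver in FPKM, fragments corrected for transcript length and library size.

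Glycogen is the branched glucose store of the liver, filled after a meal and emptied on fasting. Glucose enters it as UDP-glucose, is added to chains by glycogen synthase and is released again by glycogen phosphorylase. Protein phosphatase 1 (PP1), held on the glycogen particle by targeting subunits, switches the synthase on and the phosphorylase off. These enzymes are strongly controlled by phosphorylation and metabolites, and the values below are of mRNA only.

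Stbd1 and Ppp1r3g were the members whose levels did not overlap between the groups, so the sequences upstream of their start sites are shown. They come from RefSeq, build GRCm38.p6, plus strand for both genes, and run for 250 bases up to the base before the annotated start, at chr5:92602801-92603050 for Stbd1 and chr13:35967656-35967905 for Ppp1r3g. RefSeq's starts differ from the GENCODE gene bounds given further on: the Stbd1 stretch runs a few bases past the GENCODE start, and the Ppp1r3g stretch lies inside the GENCODE gene, upstream of the RefSeq start only. Capitals mark the GC box letters GGGCGG and, in Ppp1r3g, also TGACG, the core of a cAMP response element.
Stbd1: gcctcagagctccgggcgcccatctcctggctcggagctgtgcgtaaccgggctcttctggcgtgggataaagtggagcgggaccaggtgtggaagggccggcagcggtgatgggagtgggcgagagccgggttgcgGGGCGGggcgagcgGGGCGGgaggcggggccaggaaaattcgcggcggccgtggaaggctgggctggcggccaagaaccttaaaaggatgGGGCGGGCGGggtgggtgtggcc
Ppp1r3g: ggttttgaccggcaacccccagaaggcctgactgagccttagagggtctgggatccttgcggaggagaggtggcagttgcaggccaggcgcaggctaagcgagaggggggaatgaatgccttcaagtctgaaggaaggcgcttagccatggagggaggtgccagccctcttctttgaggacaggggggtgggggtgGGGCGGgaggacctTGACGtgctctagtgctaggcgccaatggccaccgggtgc
The Stbd1 sequence held 4 GC boxes, with first bases at positions -113, -99, -23 and -19 from the start, and those at -23 and -19 overlap. Ppp1r3g held 1 GC box at -54 and 1 TGACG at -40. GC made up 71.2% of the Stbd1 bases and 63.2% of the Ppp1r3g bases. Within the full RefSeq window of 300 bases, which also holds the first bases after the start, GGGCGG occurred on either strand in 35.7% of 32851 mouse promoters and TGACG in 20.8%. Other motifs were searched on both strands and were in neither window. They were the E-box CACGTG (7.15% of all promoters), the forkhead core TGTTTAC (3.65%), the TATA box TATAAA (13.6%) and the full cAMP response element TGACGTCA (1.79%), which itself holds TGACG. The RefSeq table held promoters for 7 of the 9 members, not for Gys2 and Ppp1r3b. Members whose groups overlapped held the same letters in their 300-base windows. Pygl and Gyg held GGGCGG and TGACG, Gbe1 and Ugp2 held GGGCGG, and Ppp1r3c held neither. These matches describe letters, the motifs were picked with the expression values known, and the series holds no binding data.

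In the fit across all genes, no member passed the threshold of an adjusted p under 0.05 (0 of 9), beside 0.0619% of the 9695 genes tested. An unadjusted p under 0.05 was reached by 2 of 9 members, Stbd1 and Ppp1r3g, beside 8.17% of all genes. The same members were those without overlap between the groups, beside 14.2% of all genes. Ppp1r3g was tested only through its iAsF1-M values, and without it Stbd1 alone of 8 members met either mark. Members were chosen with earlier results of these data known, so these counts are no test. Fold changes are iAsF1-M minus conF1-M on the scale of log2(FPKM + 1), which understates changes of low genes. On this scale 4 members lay above 0 and 5 below (5 and 4 under median-ratio scaling), with a median of -0.08, and 2951 genes lay above and 6744 below among all genes, with a median of -0.066 that moved to 0.006 under median-ratio scaling. Without Ppp1r3g the median of the other 8 members was -0.12. The p-values are from limma, adjusted by Benjamini and Hochberg over all genes tested.

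**Figure D1:**
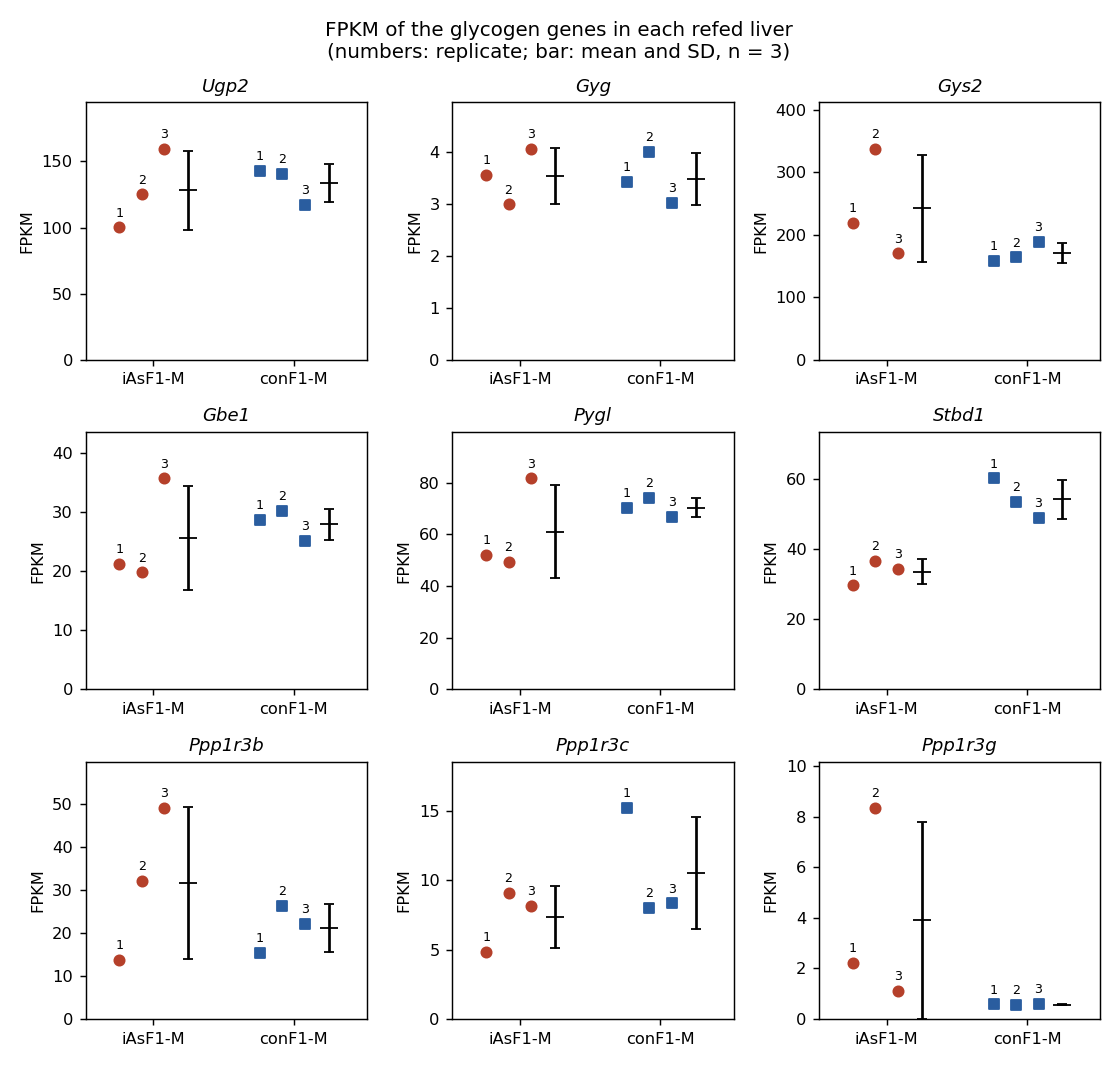
FPKM of each of the 9 glycogen genes (y axis, from 0, own scale per gene) in the 3 iAsF1-M livers (red circles) and the 3 conF1-M livers (blue squares), with the replicate number above each point and the mean and SD beside it. Stbd1 lies between 29.7 and 36.7 FPKM in iAsF1-M, below all conF1-M livers, and Ppp1r3g between 1.12 and 8.34 FPKM, above all conF1-M livers; the lower SD bar of Ppp1r3g in iAsF1-M ends near 0.

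Ugp2 and Gyg prepare the substrate and the primer, and neither separated the groups. Ugp2, on chromosome 11 from 21321138 to 21371201 (positions here and below are GRCm38, GENCODE), encodes UDP-glucose pyrophosphorylase, which makes UDP-glucose. Its levels were 100.1, 125 and 159.6 FPKM in iAsF1-M livers 1, 2 and 3, and 143, 140.4 and 117 FPKM in conF1-M livers 1, 2 and 3. The iAsF1-M livers lay on both sides of the conF1-M range, with a log2 fold change of -0.08 (95% CI -0.48 to 0.33, limma adjusted p = 0.89). That sign turned under median-ratio scaling (0.01) and without iAsF1-M 1 (0.09). Gyg (chromosome 3, 20122084 to 20155317) encodes glycogenin, the protein primer on which a new glycogen particle is built. Gyg levels were 3.56, 2.99 and 4.06 FPKM in iAsF1-M and 3.42, 4.0 and 3.02 FPKM in conF1-M. The groups covered nearly the same range, with a log2 fold change of 0.02 (95% CI -0.27 to 0.30, limma adjusted p = 0.97) whose sign also turned with library weights (-0.05).

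Gys2 and Gbe1 extend and branch the chains. Gys2 (chromosome 6, 142422613 to 142473109), the liver glycogen synthase and the most abundant of the 9 transcripts, stood at 219, 338 and 170.3 FPKM in iAsF1-M livers, against 159, 164 and 189 FPKM in conF1-M livers. iAsF1-M 1 and 2 were above every conF1-M liver and iAsF1-M 3 was inside their range. The means were 242 ± 86.3 FPKM in iAsF1-M and 170.4 ± 16 FPKM in conF1-M (SD, n = 3 each), with a log2 fold change of 0.45 (SE 0.23, 95% CI -0.08 to 0.99, limma adjusted p = 0.62). Gys1, the synthase of muscle and most other tissues, was listed below 1 FPKM throughout, and Gys2 made up 99.59% to 99.86% of the summed FPKM of both synthases in all 6 livers.

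Gbe1 (chromosome 16, 70313949 to 70569716) encodes the branching enzyme. It had 21.2, 19.8 and 35.7 FPKM in iAsF1-M livers, against 28.6, 30.2 and 25.1 FPKM in conF1-M livers. Here iAsF1-M 1 and 2 were below every conF1-M liver and iAsF1-M 3 was above them all. The log2 fold change of the 3 against 3 livers was -0.17 (95% CI -0.65 to 0.32, limma adjusted p = 0.80).

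Pygl, the liver glycogen phosphorylase (chromosome 12, 70190811 to 70231488), had the same order of livers as Gbe1. Its levels were 52.1, 49.3 and 81.7 FPKM in iAsF1-M, against 70.3, 74.0 and 66.7 FPKM in conF1-M. The log2 fold change was -0.24 (95% CI -0.66 to 0.19, limma adjusted p = 0.70). Pygl accounted for 98.40% to 99.19% of the summed FPKM of Pygl, Pygb and Pygm, the last 2 being the brain and muscle phosphorylases. Pygl overlaps a non-coding gene on the opposite strand, as do Ugp2, Ppp1r3b and Ppp1r3g, and whether strand was used in making the FPKM is not given in the sources used here, so their reads may not be fully separate.

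The ratio of Gys2 to Pygl compares synthase with phosphorylase mRNA inside each liver and needs no scaling between livers. It was 4.21, 6.86 and 2.08 in iAsF1-M livers, against 2.26, 2.21 and 2.83 in conF1-M livers. iAsF1-M 1 and 2 were above all conF1-M livers, and iAsF1-M 3 had the lowest ratio of the 6. The mean log2 ratio was 1.97 ± 0.864 in iAsF1-M and 1.27 ± 0.197 in conF1-M (SD, n = 3 each), a difference of 0.696 with an exact two-sided permutation p of 0.4. With 3 livers per group that test cannot go below 0.1.

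**Figure D2:**
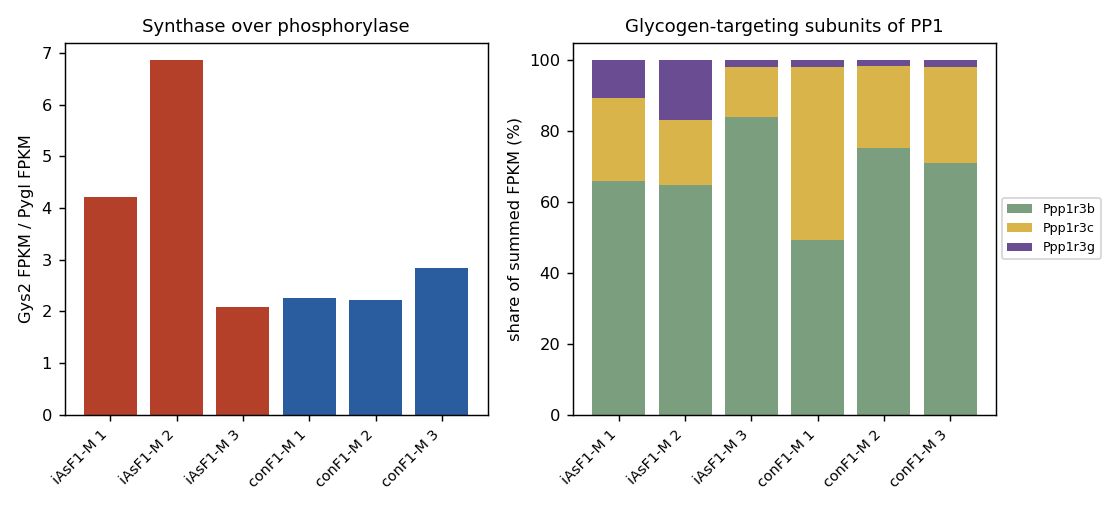
Left, ratio of Gys2 to Pygl FPKM in each liver (bars from 0), with iAsF1-M in red and conF1-M in blue. Right, percent of the summed FPKM of the 3 PP1 targeting subunits contributed by Ppp1r3b, Ppp1r3c and Ppp1r3g in each liver. The ratio is 4.21 and 6.86 in iAsF1-M 1 and 2 and 2.08 in iAsF1-M 3, and Ppp1r3c has its largest share, 49.0%, in conF1-M 1.

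Stbd1 had the smallest p among the members and was the one lower in iAsF1-M without overlap. Its product binds glycogen through a starch-binding domain, anchors it to membranes and is linked to delivery of glycogen to lysosomes, or glycophagy. Stbd1 (chromosome 5, 92603041 to 92606579) had 29.7, 36.7 and 34.3 FPKM in iAsF1-M livers 1, 2 and 3, and 60.3, 53.4 and 49.0 FPKM in conF1-M livers 1, 2 and 3. The highest iAsF1-M liver was below the lowest conF1-M liver, and both groups varied little (CV 10.6% in iAsF1-M and 10.4% in conF1-M). The means of 33.6 ± 3.56 FPKM in iAsF1-M and 54.2 ± 5.66 FPKM in conF1-M (SD, n = 3 each) gave a ratio of 0.619 and a log2 fold change of -0.68 (SE 0.12, 95% CI -0.95 to -0.41). The unadjusted p was 0.00044, and the limma adjusted p was 0.31, which did not pass. Among whole livers, fewer cells of a type and less RNA per cell cannot be told apart.

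Transcripts of sinusoidal endothelial cells also separated the groups. Their 6 markers summed to 45.6 to 53.8 FPKM in iAsF1-M and 60.4 to 78.5 FPKM in conF1-M, and 4 of the 6 (Kdr, Clec4g, Dnase1l3, Fcgr2b) lay lower in iAsF1-M without overlap, beside 11.8% of all genes, none with an adjusted p under 0.05. Stab2 and Lyve1 overlapped, and Lyve1 had a fold change above 0 (0.24). Of the stellate cell markers, 5 of 5 tested had fold changes below 0, as had 6744 of all 9695 genes tested. Lrat and Rgs5 did not overlap. All 6 stellate markers summed to 119.5 to 141 FPKM in iAsF1-M and 139 to 183 FPKM in conF1-M. The genes whose centred log2 levels over the 6 livers were nearest those of Stbd1, of 9695 compared, were Egfl7, Id3 and Ypel5, at root mean square differences of 0.107, 0.108 and 0.122. Egfl7 had 3.51, 5.07 and 4.74 FPKM in iAsF1-M, against 7.21, 6.46 and 6.13 FPKM in conF1-M. The part of endothelial or stellate cell RNA in the Stbd1 difference was not tested.

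The GABARAP proteins bind STBD1 at the autophagosome membrane. Gabarapl1, the family member best known as its partner, had 146, 142 and 152 FPKM in iAsF1-M, against 192, 153.6 and 177 FPKM in conF1-M. The groups did not overlap, but iAsF1-M 3 and conF1-M 2 nearly met (log2 fold change -0.24, limma adjusted p = 0.62). Gabarap and Gabarapl2 overlapped between the groups.

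The PP1 targeting subunits included Ppp1r3g and Ppp1r3b, the members with the largest SD of log2 values in iAsF1-M (1.1 and 0.90). Ppp1r3b (chromosome 8, 35375739 to 35388139) encodes GL, the main liver subunit, and had 13.7, 32 and 49.0 FPKM in iAsF1-M livers, against 15.3, 26.2 and 22.0 FPKM in conF1-M livers. The iAsF1-M livers held both the lowest and the highest value of the 6, and the log2 fold change of 0.42 had a wide interval (95% CI -0.54 to 1.38, limma adjusted p = 0.76). Leaving out iAsF1-M 1 gave 0.91, leaving out conF1-M 1 gave 0.21 and leaving out iAsF1-M 3 gave 0.02. Ppp1r3c (chromosome 19, 36731731 to 36736653), or PTG, a subunit that gathers synthase and phosphorylase on PP1, had 4.85, 9.09 and 8.18 FPKM in iAsF1-M, against 15.2, 8.03 and 8.33 FPKM in conF1-M. conF1-M 1 was the highest and the other conF1-M livers lay inside the iAsF1-M range. The log2 fold change was -0.44 (95% CI -1.08 to 0.19, limma adjusted p = 0.63), -0.17 without conF1-M 1 and -0.21 without iAsF1-M 1.

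Ppp1r3g encodes a subunit whose liver mRNA is known in mice to be raised by fasting. It lies on chromosome 13 from 35958839 to 35970388, opposite the antisense gene Gm30127. Its levels were 2.23, 8.34 and 1.12 FPKM in iAsF1-M livers, against 0.57, 0.54 and 0.59 FPKM in conF1-M livers. The conF1-M livers were nearly equal, and the iAsF1-M livers ranged widely above them, with iAsF1-M 2 the highest. The mean in iAsF1-M was 3.897 ± 3.89 FPKM, 6.88 times the 0.567 ± 0.0252 FPKM of conF1-M (SD, n = 3 each). The log2 fold change was 1.35 (SE 0.47, 95% CI 0.27 to 2.43), with an unadjusted p of 0.021 and a limma adjusted p of 0.59. It was 0.74 without iAsF1-M 2 and 2.11 with a pseudocount of 0.1 FPKM, and did not pass in either. As every conF1-M liver was under 1 FPKM, the gene entered the test through the iAsF1-M values. The fit shares 1 variance between the groups, but the SD of log2 values was 1.1 in iAsF1-M and 0.02 in conF1-M. The interval and p therefore do not reflect the iAsF1-M spread alone.

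The genes nearest Ppp1r3g in centred log2 level over the 6 livers were Nnmt, Pdk4 and Cidec, at root mean square differences of 0.242, 0.263 and 0.267. Pdk4, which encodes a kinase that shuts down pyruvate dehydrogenase, had 2.57, 7.26 and 0.88 FPKM in iAsF1-M, against 1.04, 1.14 and 0.47 FPKM in conF1-M. Nnmt, Pdk4 and Cidec were also highest in iAsF1-M 2. Cidec stands on the list of adipose markers, but the other markers of that list, Adipoq, Plin1 and Lep, were at or under 0.27 FPKM in every liver.

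Ppp1r3c contributed 23.3%, 18.4% and 14.0% of the summed FPKM of the 3 targeting subunits in iAsF1-M livers, against 49.0%, 23.1% and 26.9% in conF1-M livers. iAsF1-M 1 lay just above conF1-M 2, so the groups overlapped. The difference was -14.4 percentage points (exact two-sided permutation p = 0.2), and it was -6.44 without conF1-M 1. Ppp1r3g contributed 10.7%, 16.9% and 1.92% in iAsF1-M, against 1.84%, 1.55% and 1.91% in conF1-M. The summed level of the 3 subunits was 20.8, 49.4 and 58.3 FPKM in iAsF1-M and 31.1, 34.8 and 30.9 FPKM in conF1-M.

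The order of the levels was compared per length, in FPKM. In iAsF1-M livers Gys2 was highest, then Ugp2 and Pygl, and these 3 did not overlap, while Stbd1, Ppp1r3b and Gbe1 overlapped one another. Ppp1r3g overlapped both Ppp1r3c and Gyg there, and Ppp1r3c (at least 4.85 FPKM) lay above Gyg (at most 4.06 FPKM). In conF1-M livers the order was Gys2, Ugp2, Pygl, Stbd1, Gbe1, Ppp1r3b, Ppp1r3c, Gyg and Ppp1r3g. There only Gbe1 and Ppp1r3b overlapped among neighbours, and Ppp1r3b and Ppp1r3c nearly met at 15.3 and 15.2 FPKM.

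**Figure D3:**
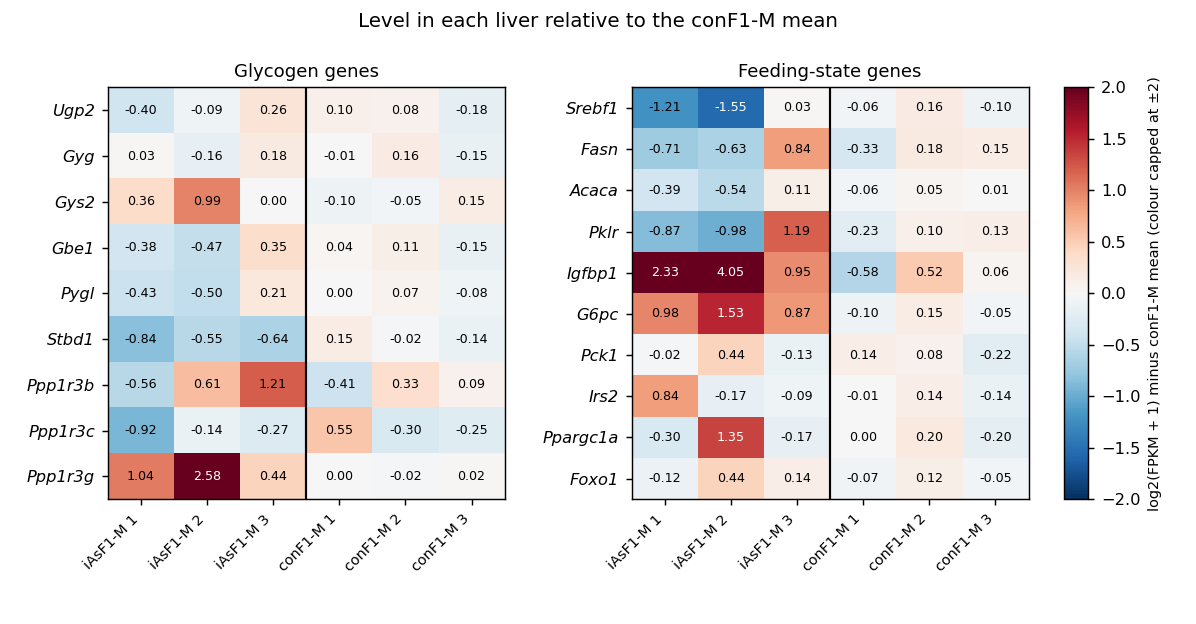
Level of each glycogen gene (left) and of feeding-state genes (right) in the 6 livers, as log2(FPKM + 1) minus the conF1-M mean, with colour capped at 2 in both directions and iAsF1-M livers left of the black line. iAsF1-M 1 and 2 lie below the conF1-M mean for Pygl (-0.43 and -0.50) and Gbe1 (-0.38 and -0.47), and iAsF1-M 3 lies above it (0.21 and 0.35).

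The livers of the iAsF1-M group were not alike. The SD of log2(FPKM + 1) was larger in iAsF1-M than in conF1-M for 8 of 9 members, with Ppp1r3c the exception and Stbd1 at nearly equal SDs, beside 64.0% of all genes. iAsF1-M 3 was the highest of the 6 livers for 5 of 9 members (Ugp2, Gyg, Gbe1, Pygl, Ppp1r3b), beside 14.4% of all genes. It lay on the other side of the conF1-M mean from iAsF1-M 1 and 2 for 3 of 9 members (Ugp2, Gbe1, Pygl), beside 27.7% of all genes. These descriptions were chosen after the values were seen and carry no test.

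Some genes that follow insulin and feeding in the liver also divided the iAsF1-M livers. Srebf1, whose product drives lipid synthesis genes and which insulin induces, had 8.16, 6.2 and 20.6 FPKM in iAsF1-M, against 19.3, 22.6 and 18.7 FPKM in conF1-M. iAsF1-M 1 and 2 were below all conF1-M livers and iAsF1-M 3 was inside their range (log2 fold change -0.91, limma adjusted p = 0.59). Igfbp1, a growth factor binding protein that insulin represses, had 72.5, 240.6 and 27.3 FPKM in iAsF1-M, against 8.82, 20.0 and 14.2 FPKM in conF1-M. All iAsF1-M livers were above all conF1-M livers, with iAsF1-M 2 highest as for Ppp1r3g (log2 fold change 2.44, limma adjusted p = 0.57).

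G6pc, the catalytic subunit of glucose-6-phosphatase, which frees glucose from glucose 6-phosphate, had 196, 287 and 180.4 FPKM in iAsF1-M, against 91.7, 109.7 and 95.3 FPKM in conF1-M. These groups did not overlap (log2 fold change 1.13, 95% CI 0.71 to 1.54, limma adjusted p = 0.28). Pck1, which insulin also represses, overlapped at 1164, 1598 and 1078 FPKM in iAsF1-M and 1296, 1249 and 1011 FPKM in conF1-M (log2 fold change 0.10, limma adjusted p = 0.87). Of the 12 feeding-state genes listed, 11 were tested and none passed. Fold changes were below 0 for 5 of 5 insulin- and glucose-induced genes and above 0 for 6 of 6 insulin-repressed genes. Among all 9695 genes tested, 6744 were below 0 and 2951 above. In mean FPKM, however, Pklr was 1.11 times as high in iAsF1-M and Fasn was equal (ratio 1.0), with iAsF1-M 3 the highest liver for each. The signs on the log2 scale were the same under median-ratio scaling and quantile normalization. The split rested on single livers: without iAsF1-M 1 or without iAsF1-M 2 only 3 of 5 induced genes were below 0, and 4 of 6 repressed genes were above 0 without iAsF1-M 2 and 5 of 6 without iAsF1-M 1 or conF1-M 3. How far each mouse had fed was not measured in these files, and its part in the glycogen gene levels was not tested.

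Each liver was also left out in turn, and no member passed in any of these limma fits. Stbd1 ran from -0.75 to -0.59 in them. Without iAsF1-M 1, 2 and 3 in turn, the log2 fold change of Pygl was -0.14, -0.11 and -0.46, that of Gbe1 -0.06, -0.01 and -0.42, and that of Gys2 0.50, 0.18 and 0.68. These 3 values therefore depended on which iAsF1-M liver was present. Ppp1r3g was 1.51, 0.74 and 1.81 in the same order. Over all genes, 0.752% of 9704 passed without iAsF1-M 3, and among them were 5 feeding-state genes and 3 partners (G6pc among both), while none on these lists passed when any other liver was left out. iAsF1-M 3 differed from iAsF1-M 1 and 2 in such genes (Srebf1 and Gckr, for example), so these calls are no test of the groups.

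The other genes of the pathway were taken from lists of 32 partners, of which 21 were tested. None passed the threshold with all 6 livers. Fold changes were above 0 for 5 and below for 16, beside 2951 above and 6744 below among all genes tested (median -0.066). The partners' split became 10 and 11 under median-ratio scaling or quantile normalization and 9 and 13 without iAsF1-M 1. The synthesis partners (among them glucose uptake, phosphoglucomutases and synthase kinases) were all below 0, 7 of 7, with a median of -0.11, and 5 of 7 were below 0 under those scalings, with Pgm2 and Slc2a2 above, and 6 or 7 of 7 with 1 liver left out. The breakdown partners were split, 3 above and 4 below 0 (4 and 3 under those scalings), with a median of -0.06. The 3 glycophagy partners were below 0, of which Gabarapl2 turned under those scalings. The catalytic PP1 subunits and Epm2aip1 were split 2 and 2, or 3 and 1 under those scalings.

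G6pc, Gckr and Gabarapl1 were among the partners with the smallest p. Gckr, which encodes a regulatory protein of hepatocyte glucose use, had 19.6, 18.4 and 30.8 FPKM in iAsF1-M, against 32.9, 31.6 and 28.7 FPKM in conF1-M (log2 fold change -0.46, limma adjusted p = 0.59). For Gckr, iAsF1-M 1 and 2 were below all conF1-M livers and iAsF1-M 3 was inside their range.

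**Figure D4:**
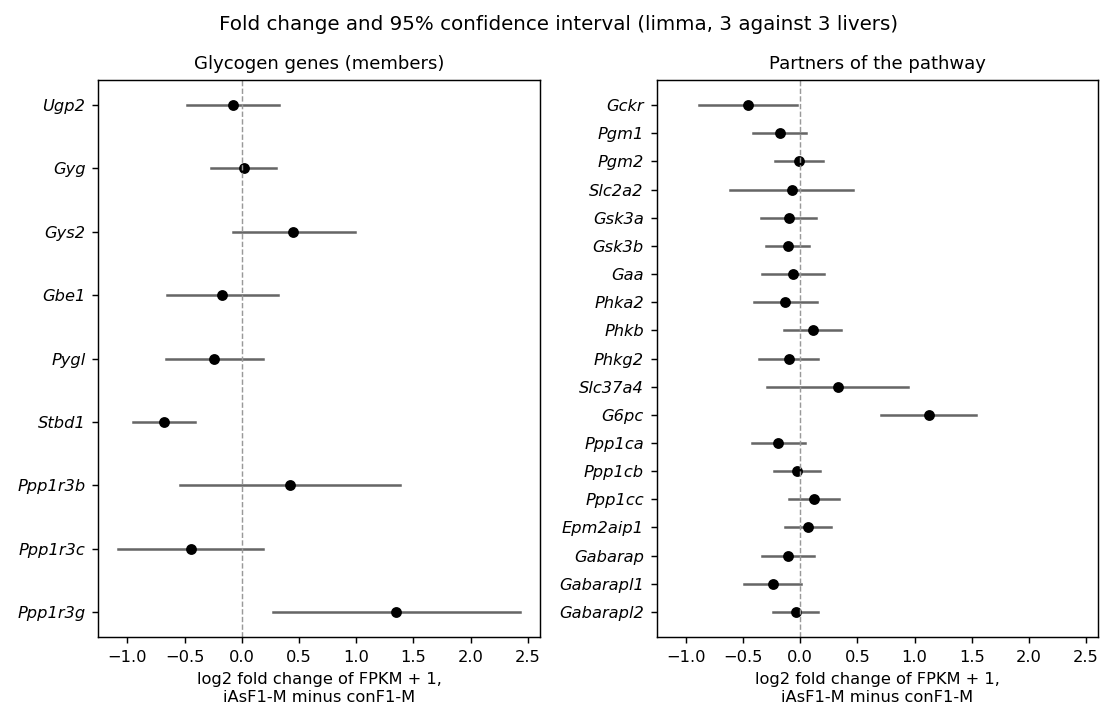
Log2 fold change of FPKM + 1, iAsF1-M minus conF1-M (x axis), with the 95% confidence interval from limma, for the 9 glycogen genes (left) and tested partners (right). Stbd1 (-0.68) and Ppp1r3g (1.35) are the members whose intervals leave out 0, and no gene shown had an adjusted p under 0.05. The fit shares 1 variance between the groups, though Ppp1r3g varied far more in iAsF1-M.

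The libraries were compared as whole tables. FPKM summed to 643496 to 699686 in iAsF1-M and 653351 to 689986 in conF1-M livers, and 1960 to 2174 genes were listed at 0 in iAsF1-M and 1190 to 2230 in conF1-M. FPKM hold no totals, and reading the depth from the steps between low values did not settle it. In 3 readings the best-fitting depth ran from 20850000 to 40000000 fragments, the last being the end of the range searched, with 45.4% to 70.6% of low values within 0.15 of a whole number, where evenly spread values give 30%. The depth is therefore unknown here, and no counts were recovered. Hepatocyte markers were high in all livers, with Alb at 26548 to 40155 FPKM in iAsF1-M and 31682 to 37316 FPKM in conF1-M. The 4 of 6 listed skeletal muscle markers that were analysed, without Acta1 and Ckm, summed to at most 0.05 FPKM. Pancreas markers summed to at most 0.27 FPKM. Kupffer cell markers summed to 57.3 to 149.7 FPKM in iAsF1-M and 90.8 to 106 FPKM in conF1-M. Of these 6 markers, 3 had fold changes above 0 and 3 below. Only Clec4f did not overlap, lower in iAsF1-M (limma adjusted p = 0.58), beside 11.8% of all genes.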

How the data were processed

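Liver RNA from 6 refed F1 males was analysed, 3 iAsF1-M and 3 conF1-M, grouped by the sample labels. The authors sequenced paired-end reads, filtered them and aligned them to GRCm38 with HISAT2, and deposited 1 FPKM value per gene and liver. The program and annotation behind the FPKM are not given in the sources used here. Dose, exposure and refeeding times are from the study's methods. GENCODE vM21, same build, named 16724 of 16727 identifiers, and 16 on 2 lines were left out.

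After adding 1 and taking log2, FPKM were fitted by limma 3.58.1 (R 4.3.3, lmFit and eBayes, trend on, no block), keeping genes that averaged 1 FPKM or more. The test was two-sided with Benjamini-Hochberg adjustment and a threshold of 0.05. Its estimates were checked on simulated data with equal spread in both groups. As the real groups differ in spread, that check does not cover the test on these livers. Permutation tests (Python 3.11.15, numpy 2.4.6) were exact over the 6 livers. Members and gene lists were chosen with earlier results of these data known. All members were named, and of the partners the 4 with the smallest p, of the feeding-state genes Igfbp1, Pck1 and G6pc, and the 3 genes most like Stbd1 (smallest p) and Ppp1r3g (most variable). The members' motifs, the descriptions per liver, other shares and the second and later depth readings were chosen after values were seen. So were Srebf1, Fasn, Pklr and the marker genes named. Some genes that counts and this rule cover are not reported here. Alternatives were other pseudocounts, filters, scalings, variance models, library weights, a replicate block and leaving out each liver.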

Additional observations from a re-analysis of the deposited data

How the results depend on the processing

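No glycogen gene passed in any of 14 alternatives, and apart from Ugp2 and Gyg each kept its sign. Stbd1 ranged from -0.75 to -0.59 on the log2 scale, with adjusted p of 0.066 to 0.99. Over all genes, 6 passed, against 3 without the filter on low values and 3 to 73 when 1 liver was left out (73 leaving out iAsF1-M 3, 13 leaving out conF1-M 3, and 3 leaving out either other conF1-M liver). Leaving out 1 liver gave 0 to 3 passing partners and 0 to 5 passing feeding-state genes, above 0 only without iAsF1-M 3. Ugp2 was 0.01 under median-ratio scaling and ran from -0.25 to 0.09 with 1 liver left out, and Gyg was -0.05 with library weights and ran from -0.07 to 0.11. Leaving out 1 liver gave log2 Gys2 to Pygl differences of 0.292 to 1.15 and Ppp1r3c share differences of -19.4 to -6.44 points. The cause was not tested. Deviations of livers that share a replicate number correlated at 0.167, -0.102 and -0.021 for numbers 1, 2 and 3. Those of livers with unlike numbers ran from -0.13 to 0.168. With 3 livers per group these values cannot settle whether the numbers pair the livers. With the replicate block 5 genes and no member passed, and Stbd1 had a limma adjusted p of 0.43. The Gys2 to Pygl difference had a sign-flip p of 0.5 (exact permutation), from a test that cannot reach 0.05 with 3 pairs. The number of livers limits what could be detected, and depth is unknown.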
